A study of Mus musculus with 22 samples.

Results

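The genes described here are the 9 of GABA handling: Gad1 and Gad2, which make GABA, Slc32a1, which loads it into vesicles, Slc6a11, which takes it up again, Abat, which breaks it down, Gabbr1 and Gabbr2, the subunits of the GABA-B receptor, and the chloride cotransporters Slc12a2 and Slc12a5. They were chosen by name for these roles, and all 9 were found among the 37786 genes of the count table. Their transcripts were counted by RNA sequencing in tissue of the anterior cingulate cortex (ACC) from 22 male adult C57BL/6J mice, wildtype by label. All mice had received, in the basolateral amygdala (BLA) of both sides, an AAV5 vector carrying channelrhodopsin-2 fused to EYFP behind the CaMKIIa promoter. All carried a unilateral optic fiber in the ACC. In the 10 stimulated mice blue light activated the BLA axons in the ACC over 9 sessions, while the 12 control mice went through the same procedure with the light off. The CaMKIIa promoter directs the opsin to excitatory neurons, and the RNA came from all cells of the ACC, dissected on both sides.

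GABA is the main inhibitory transmitter of the cortex. Interneurons make it from glutamate and pack it into synaptic vesicles, astrocytes and nerve endings clear it, and it acts through GABA-A chloride channels and through G-protein-coupled GABA-B receptors. Whether the opening of a GABA-A channel inhibits a neuron depends on its internal chloride, which the importer NKCC1 (Slc12a2) raises and the exporter KCC2 (Slc12a5) lowers.

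The bases before the RefSeq starts of Gad1, Gad2 and Slc32a1 are shown because these are the genes that define a GABA-releasing neuron. The levels of the enzymes also moved together from mouse to mouse, as they did with other genes, described further on. Each run is 120 bases of RefSeq sequence on the plus strand (build GRCm38.p6), at chr2:70561922-70562041, chr2:22622085-22622204 and chr2:158610638-158610757 in the order printed, and ends before the nearest exon of the gene in the GENCODE M21 annotation. The windows of Gad1 and Gad2 end 87 and 122 bases before the RefSeq start, and that of Slc32a1 ends at it. The Gad1 window lies inside the gene as GENCODE annotates it, since that annotation places the gene start further upstream, at position 70553072. Capitals mark matches to a searched motif, on either strand.
Gad1: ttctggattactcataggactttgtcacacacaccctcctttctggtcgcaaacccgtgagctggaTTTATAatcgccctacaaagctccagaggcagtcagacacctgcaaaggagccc
Gad2: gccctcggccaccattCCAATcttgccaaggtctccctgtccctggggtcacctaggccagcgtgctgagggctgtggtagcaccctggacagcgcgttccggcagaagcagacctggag
Slc32a1: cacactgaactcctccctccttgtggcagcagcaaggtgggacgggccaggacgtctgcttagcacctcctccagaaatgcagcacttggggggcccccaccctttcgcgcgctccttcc
The Gad1 window holds 1 TATA box (TATAAA, read on the minus strand), a motif found in 6.56% of 28978 such windows over all genes. The Gad2 window holds 1 CCAAT box (CCAAT), found in 21.8% of windows. None of the 3 windows holds a GC box (GGGCGG, 24.4% of windows), the cyclic AMP response element (TGACGTCA, 1.17%) or the homeodomain core TAATT (12.6%), and the Slc32a1 window matched none of the 5 motifs. GC content was 50.8% for Gad1, 65.0% for Gad2 and 64.2% for Slc32a1.

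The libraries held 23090483 to 43668462 counted reads, and the members had between 256 (Slc32a1) and 24574 (Gabbr1) reads in a library, all 9 passing the count minimum. The library numbers in the labels form a first run, 1 to 11 (6 controls, 4 stimulated, with no library 7), and a second, 12 to 23 (6 and 6). Mitochondrial genes took a median of 2.21% of counts in the first run and 1.12% in the second. Of the 17524 genes tested, 68.1% differed between the runs at an adjusted p under 0.05, so the run was kept as a term in the fit. Levels of the members are given within each run, while summed levels of marker lists span both runs. Expression is in CPM, the reads of a gene scaled to the total and the composition of each library, and log2 fold changes are stimulated over control from that fit (edgeR's quasi-likelihood test). The excitatory, inhibitory, astrocyte, oligodendrocyte, microglial and endothelial marker genes of cortex were all detected, and no marker list was at 0 in any mouse.

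No member passed the test at an adjusted p under 0.05, and neither did any other gene. At an unadjusted p under 0.05 the counts were 2 of 9 members, Slc32a1 higher and Slc12a2 lower, against 11.5% of all genes tested (6.05% higher, 5.45% lower). DESeq2 on the same design called 33 genes after adjustment (0.188%) and limma voom called 1 (0.00571%), none of them a member. With group as the only term no member had an unadjusted p under 0.05, against 3.61% of all genes. In bulk tissue fewer cells of a type and less RNA per cell cannot be told apart, which holds for every gene below. The median log2 fold change was 0.05 over the members and 0.01 over all genes, with 6 members above 0 and 3 below. Within runs the count was 1 member each, Slc32a1 in the first (5.56% of all genes) and Slc12a2 in the second (12.4%). In no member were the groups apart in either run, where 1.29% and 0.548% of all genes had groups that did not overlap.

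**Figure D1:**
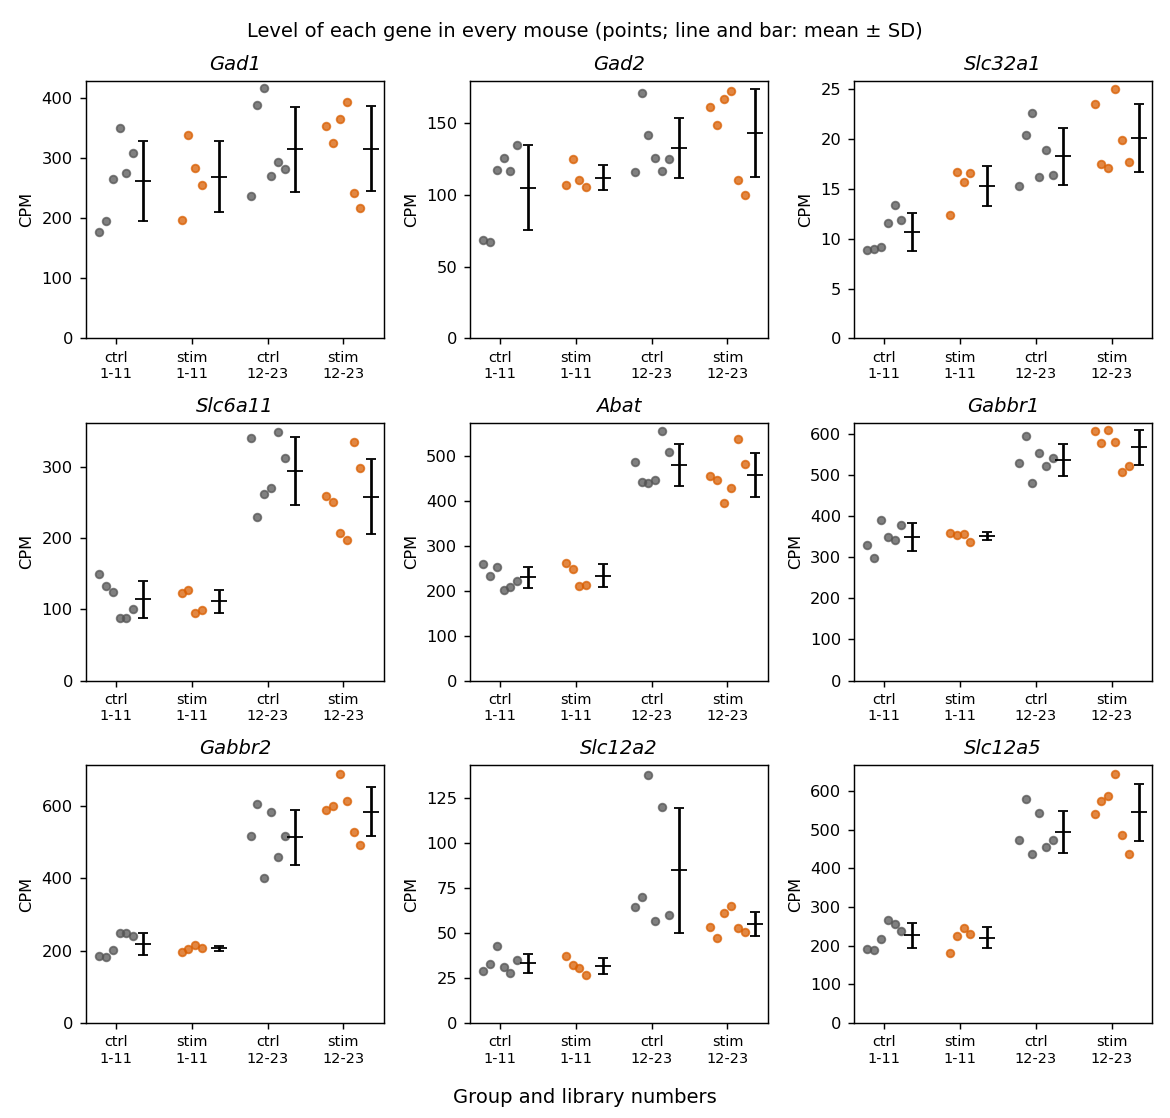
CPM of the 9 genes in each mouse (points), by group (control, grey; stimulated, orange) and library numbers, with mean ± SD beside them. Levels are higher in libraries 12 to 23 for all 9 genes, and the groups overlap in both runs for each.

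Gad1 (chr2:70553072-70602014, plus strand) encodes GAD67, the form of glutamate decarboxylase that makes most of the GABA of the cell body. In the first run the controls lay at 177, 270 and 350 CPM (lowest, median, highest) and the stimulated mice at 197, 256, 283 and 338 CPM. Second-run controls spanned 237 to 416 CPM around a median of 287, and stimulated mice 216 to 392 CPM around 339. The groups covered nearly the same range in both runs. Its log2 fold change was 0.02 (SE 0.13, adjusted p = 0.966).

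Gad2 (chr2:22622205-22693874, plus strand) encodes GAD65, the form that sits at nerve endings. Controls lay at 67.0, 117 and 135 CPM in the first run (lowest, median, highest), with controls 1 and 2 far below the other 4, and stimulated mice at 106 to 125 CPM. Second-run controls spanned 116 to 171 CPM and stimulated mice 100 to 173 CPM, with 1 stimulated mouse above every control and 2 below. Gad2 differed by 0.10 on the log2 scale (SE 0.12, adjusted p = 0.762).

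The enzymes kept step with each other across mice, but not more closely than with other genes. With run and group means removed they correlated at 0.88, while Hspa9 correlated with Gad1 at 0.95 and with Gad2 at 0.97. Within the first run Gad1 and Gad2 correlated at r = 0.852 (permutation p = 0.00041, n = 10 mice; Spearman's rho 0.891, permutation p = 0.00123), and r was 0.754 without the 2 mice farthest from the median. Within the second run r was 0.904 (permutation p = 0.0002, n = 12; rho 0.860, permutation p = 0.00073) and 0.957 without the 2 farthest. Over the 24 relations computed, chosen after the data were seen, the adjusted permutation p of r was 0.00141 and 0.0008, and that of rho was 0.00328 and 0.00281. The mean log2 ratio of Gad1 to Gad2 was 1.33 ± 0.15 (SD, n = 6) in first-run controls and 1.24 ± 0.25 (n = 4) in stimulated mice. In the second run it was 1.23 ± 0.19 (n = 6) in controls and 1.13 ± 0.02 (n = 6) in stimulated mice. Compared within runs, the difference of -0.09 had an exact two-sided permutation p of 0.209 (adjusted over the 3 ratios tested, 0.314).

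Gad1 also moved with the share of mitochondrial transcripts, which was highest in controls 1 and 2 (4.41% and 4.81%). Its level correlated with the mitochondrial share of counts at r = -0.785 in the first run (permutation p = 0.0076; rho -0.673, permutation p = 0.0396) and -0.734 in the second (permutation p = 0.00999; rho -0.790, permutation p = 0.00333). The adjusted permutation p was 0.0130 and 0.0160 for r, and 0.0528 and 0.00727 for rho. Without these controls r in the first run was -0.462, and in the second r was -0.689 without the 2 farthest mice. With that share as a further term the log2 fold changes were -0.11 (SE 0.10) for Gad1 and -0.02 (SE 0.08) for Gad2, each on the other side of 0 from the values above and each without an adjusted p under 0.05.

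Slc32a1 (chr2:158610767-158615748, plus strand) encodes VGAT, the transporter that fills synaptic vesicles with GABA. The 6 first-run controls had 8.84, 9.01, 9.13, 11.6, 11.8 and 13.4 CPM, and the 4 stimulated mice 12.4, 15.6, 16.6 and 16.7 CPM. Of these stimulated mice 3 lay above every control, and the fourth lay below the highest control only. The second-run controls spanned 15.3 to 22.6 CPM with a median of 17.6 CPM, and the stimulated mice 17.1 to 25.0 CPM with a median of 18.8. There 2 of 6 stimulated mice were above every control and the rest were among them.

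Over both runs Slc32a1 was 1.24-fold higher in stimulated mice (log2 fold change 0.31, SE 0.10, unadjusted p = 0.00513, adjusted p = 0.329). It was 0.54 (SE 0.15, adjusted p = 0.799) in the first run alone and 0.10 (SE 0.12, adjusted p = 0.770) in the second. Most of the difference lay in the first run, but the runs were not shown to differ. The difference between them, by the interaction term, was -0.39 (SE 0.19, unadjusted p = 0.0568, adjusted p = 0.627). With the mitochondrial share in the fit the log2 fold change was 0.22 (SE 0.09, unadjusted p = 0.0164, adjusted p = 0.387). The direction stayed with group as the only term, at 0.33 (SE 0.16, unadjusted p = 0.0517). Of its exonic bases 697 (24.9%) are shared with the antisense gene Gm14205 on the other strand, and whether counting used strand is not given in the sources used here, so reads of that antisense gene could have been counted with it.

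The 10 interneuron markers, which include the peptides and regulators of the main interneuron classes, split 5 above and 5 below 0, with a median of -0.01. In the first run alone 7 of the 10 were above 0 (median 0.06), 2 of them at an unadjusted p under 0.05, where 2.21% of all genes were higher. In the second 5 were above and 5 below 0, with 2 lower at that p, where 8.3% of all genes were lower. The summed levels were 624 to 1167 CPM in controls and 709 to 1382 CPM in stimulated mice. A score of these markers correlated with Slc32a1 at r = 0.672 in the first run (permutation p = 0.0361, adjusted 0.0457; rho 0.588, permutation p = 0.0809, adjusted 0.102) and 0.634 in the second (permutation p = 0.0293, adjusted 0.0390; rho 0.615, permutation p = 0.0377, adjusted 0.0528). Without the 2 farthest mice these values of r were 0.482 and 0.513. Among these markers Npy (log2 fold change 0.25, SE 0.11) and Sst (0.24, SE 0.11), peptides of a shared interneuron class, had unadjusted p of 0.0364 and 0.0420 (adjusted p 0.408 and 0.416). Pvalb, the calcium buffer of fast-spiking interneurons, had -0.26 (SE 0.21, adjusted p 0.644). With the mitochondrial share in the fit none of the 10 was higher at an unadjusted p under 0.05, and 1 was lower, where 702 of 17524 genes were. The 9 markers of striatal projection neurons, GABA neurons of tissue bordering the dissected area, summed to 167 to 222 CPM in controls and 171 to 260 CPM in stimulated mice. Over both runs 8 of the 9 were above 0 (median log2 fold change 0.08), none at an unadjusted p under 0.05. In the first run alone 8 were above 0 (median 0.11), 1 of them at that p, where 2.21% of all genes were higher. In the second 6 were above and 3 below 0 (median 0.06), with 1 lower at that p, where 8.3% of all genes were lower. The part of these cells in the level of Slc32a1 was not tested beyond these values.

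**Figure D2:**
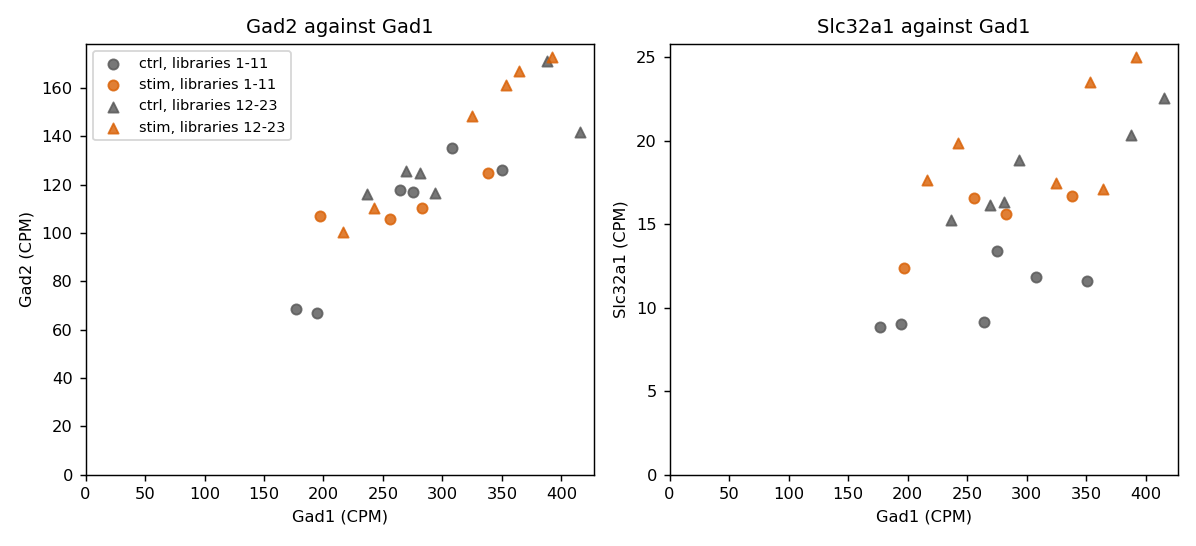
Gad2 (left) and Slc32a1 (right) against Gad1, in CPM, 1 point a mouse; colour marks the group and shape the library numbers. Gad2 rises with Gad1 in both runs (r = 0.852 and 0.904), while the first-run stimulated mice (orange circles) have Slc32a1 of 12.4 to 16.7 CPM at Gad1 levels that the controls also reach.

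Slc6a11 (chr6:114131241-114249952, plus strand) encodes GAT-3, a GABA transporter found mainly on astrocytes. First-run controls spanned 87.8 to 150 CPM and stimulated mice 95.7 to 127 CPM. Second-run controls spanned 230 to 349 CPM around a median of 292, and stimulated mice 198 to 335 CPM around 255, with 2 of 6 below every control. The groups shared most of their range, and the log2 difference was -0.12 (SE 0.11, adjusted p = 0.674).

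Abat (chr16:8513429-8621568, plus strand) encodes GABA transaminase, the mitochondrial enzyme that degrades GABA. First-run controls spanned 202 to 259 CPM and stimulated mice 212 to 261 CPM. Second-run controls spanned 441 to 556 CPM and stimulated mice 396 to 537 CPM, with 2 of 6 below every control. Again the groups overlapped, with a log2 fold change of -0.03 (SE 0.07, adjusted p = 0.900).

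These genes of GABA clearance went with each other and with astrocyte transcripts. Abat and Slc6a11 correlated at r = 0.909 in the first run (permutation p = 0.00119; rho 0.830, permutation p = 0.00468) and at 0.902 in the second (permutation p = 5e-05; rho 0.916, permutation p = 0.00012). Slc6a11 correlated with a score of 8 astrocyte markers at 0.906 (permutation p = 0.00063; rho 0.855, permutation p = 0.00281) and 0.904 (permutation p = 6e-05; rho 0.853, permutation p = 0.00082). Both relations kept their strength in both runs. Without the 2 farthest mice these 4 values of r were 0.911, 0.878, 0.838 and 0.941, and their adjusted permutation p were 0.00286, 0.00036, 0.00168 and 0.00036 (for rho 0.00936, 0.00096, 0.00674 and 0.00281). All 8 astrocyte markers had a log2 fold change below 0, with a median of -0.13 and no unadjusted p under 0.05, but 6 of 8 were above 0 (median 0.07) with the mitochondrial share in the fit. Their levels summed to 3785 to 7716 CPM in controls and 3521 to 6793 CPM in stimulated mice. Their part in the values of Slc6a11 and Abat was not tested.

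Gabbr1 (chr17:37045966-37075067, plus strand) encodes the subunit of the GABA-B receptor that binds GABA. First-run controls spanned 297 to 391 CPM and stimulated mice 337 to 360 CPM, all within the range of the controls. Second-run controls spanned 480 to 596 CPM and stimulated mice 508 to 609 CPM. The difference was 0.05 on the log2 scale (SE 0.06, adjusted p = 0.739).

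Gabbr2 (chr4:46662305-46991873, minus strand) encodes the partner subunit that couples the receptor to G proteins. The first-run stimulated mice, at 197 to 216 CPM, lay inside the control range of 183 to 248 CPM, and all 4 were below its median of 220.1 CPM. Among second-run mice 5 of 6 stimulated ones, which spanned 491 to 689 CPM, were above the control median of 517 CPM. The log2 fold change was 0.07 (SE 0.08, adjusted p = 0.759), with -0.07 in the first run and 0.15 in the second. The receptor subunit thus leaned in opposite directions in the runs, without passing the test of that difference, which was 0.27 (SE 0.16, unadjusted p = 0.101, adjusted p = 0.697). The mean log2 ratio of Gabbr1 to Gabbr2 was 0.69 ± 0.19 (SD, n = 6) in first-run controls and 0.77 ± 0.07 (n = 4) in stimulated mice. In the second run it was 0.07 ± 0.13 (n = 6) in controls and -0.04 ± 0.10 (n = 6) in stimulated mice. The differences of 0.09 and -0.11 had opposite signs, and their average of -0.02, weighted by mice, had an exact two-sided permutation p of 0.716.

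Slc12a2 encodes NKCC1, which carries sodium, potassium and chloride into cells and in adult brain is abundant in glia and in the choroid plexus. The 6 first-run controls spanned 28.0 to 42.9 CPM with a median of 31.99, and the 4 stimulated mice had 26.7, 30.3, 32.1 and 37.0 CPM, mostly among them. The second-run controls had 56.5, 60.3, 64.3, 70.0, 120.2 and 138 CPM, and the stimulated mice 47.0, 50.3, 53.0, 53.3, 61.2 and 65.0 CPM. In that run all 6 stimulated mice were below the control median and 4 were below every control, and the highest values were those of controls 9 (138 CPM) and 11 (120.2 CPM).

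Over both runs Slc12a2 was lower in stimulated mice by 23.1% in the model (log2 fold change -0.38, SE 0.14, unadjusted p = 0.0131, adjusted p = 0.353). The log2 fold change was -0.05 (SE 0.13, adjusted p = 0.986) in the first run and -0.66 (SE 0.20, adjusted p = 0.279) in the second. The runs did not pass the test of a difference after adjustment. That interaction was -0.56 (SE 0.27, unadjusted p = 0.0466, adjusted p = 0.616), where 8.01% of all genes had an unadjusted p under 0.05. Without controls 9 and 11 the log2 fold change was -0.12 (SE 0.08, unadjusted p = 0.147, adjusted p = 0.698), and 1 member, Slc32a1, had an unadjusted p under 0.05 against 8.16% of all genes. With group as the only term it was -0.37 (SE 0.27, unadjusted p = 0.176). Leaving out any 1 mouse gave values between -0.44 and -0.26.

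Controls 9 and 11 also held the most oligodendrocyte RNA. All 8 markers of these myelin-forming cells were lower in stimulated mice at an unadjusted p under 0.05 (median log2 fold change -0.69, smallest adjusted p 0.333), where 5.45% of all genes were. Without controls 9 and 11 none of the 8 was, and the median was -0.10. In the first run alone 6 of the 8 were above 0 (median 0.11) and none had an unadjusted p under 0.05. In the second all 8 were lower at that p (median -1.33), where 8.3% of all genes were. By limma voom over all mice 3 of the 8 were lower at that p (median -0.35), where 1188 of 17524 genes were. Their summed level was 3195 to 19639 CPM in controls and 2337 to 5799 CPM in stimulated mice. On a score of these markers, the mean of log2 CPM centred on all mice, controls 9 and 11 stood at 2.14 and 1.60, and every other mouse at or below 0.25. The score correlated with Slc12a2 at r = 0.925 in the second run (permutation p = 0.00148, adjusted permutation p = 0.00323, rho 0.636 with permutation p = 0.0295, adjusted 0.0462), and at 0.352 without these 2 controls, on which the relation rests. In the first run r was 0.603 (permutation p = 0.0642, adjusted permutation p = 0.0771; rho 0.515, permutation p = 0.133, adjusted 0.160), and 0.181 without the 2 farthest mice.

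The choroid plexus is another site of NKCC1. Of its 4 markers 3 passed the count minimum, and 2 of these 3, Ttr and Clic6, were lower at an unadjusted p under 0.05, against 5.45% of all genes. The largest difference was that of Ttr, the thyroid hormone carrier of that tissue (log2 fold change -1.88, SE 0.53, unadjusted p = 0.00165, adjusted p = 0.313), and Kl was at -0.20 (SE 0.21, unadjusted p = 0.352). In the first run alone none of the 3 had an unadjusted p under 0.05 (median -0.17). Without controls 9 and 11 the count was still 2 of 3 (median -1.05), against 8.16% of all genes in either direction. Their summed level was 4.12 to 134 CPM in controls and 5.25 to 17.2 CPM in stimulated mice. The part of choroid plexus and oligodendrocyte RNA in the level of Slc12a2 was not tested beyond these values.

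Slc12a5 (chr2:164960802-164999731, plus strand) encodes KCC2, the potassium and chloride exporter of mature neurons. First-run controls spanned 188 to 266 CPM and stimulated mice 181 to 247 CPM. Second-run controls spanned 438 to 581 CPM around a median of 474, and stimulated mice 438 to 644 CPM around 559, with 5 of 6 above the control median. Slc12a5 had a log2 fold change of 0.06 (SE 0.08, adjusted p = 0.783). The 8 excitatory neuron markers had a median of 0.12, with Slc17a7, the vesicular glutamate transporter, at 0.16 (SE 0.06) and Neurod2, a neuronal transcription factor, at 0.23 (SE 0.08), the only ones with an unadjusted p under 0.05, where 6.05% of all genes were higher. In the first run alone 4 of the 8 were above 0 and 4 below (median -0.02), and in the second all 8 were above 0 (median 0.11). Their summed level was 3281 to 7043 CPM in controls and 3273 to 7972 CPM in stimulated mice. A score of these markers correlated with Slc12a5 at r = 0.890 in the first run (permutation p = 0.00063, adjusted 0.00168; rho 0.939, permutation p = 0.00025, adjusted 0.0013) and 0.789 in the second (permutation p = 0.00366, adjusted 0.00676; rho 0.657, permutation p = 0.0238, adjusted 0.0407). Without the 2 farthest mice r was 0.890 and 0.773.

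The ratio of exporter to importer, in log2 CPM, was 2.78 ± 0.32 (SD, n = 6) in first-run controls and 2.81 ± 0.37 (n = 4) in stimulated mice, a difference of 0.03 (exact two-sided permutation p = 0.886). Among second-run mice it was 2.63 ± 0.66 (n = 6) in controls and 3.31 ± 0.17 (n = 6) in stimulated mice, a difference of 0.68 (exact two-sided permutation p = 0.00866). The second-run controls reached from 1.67 in control 9 and 1.92 in control 11 to 3.26 in control 10, inside the stimulated range of 3.12 to 3.61. Without controls 9 and 11 the second-run difference was 0.27 (exact two-sided permutation p = 0.0381, 4 controls and 6 stimulated mice), and that over both runs was 0.15 (exact two-sided permutation p = 0.240). Over both runs the difference was 0.39 with an exact two-sided permutation p of 0.0571, and 0.171 after adjustment over the 3 ratios. This ratio is of transcripts from all cells of the tissue, and protein or chloride in any cell type was not measured here.

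**Figure D3:**
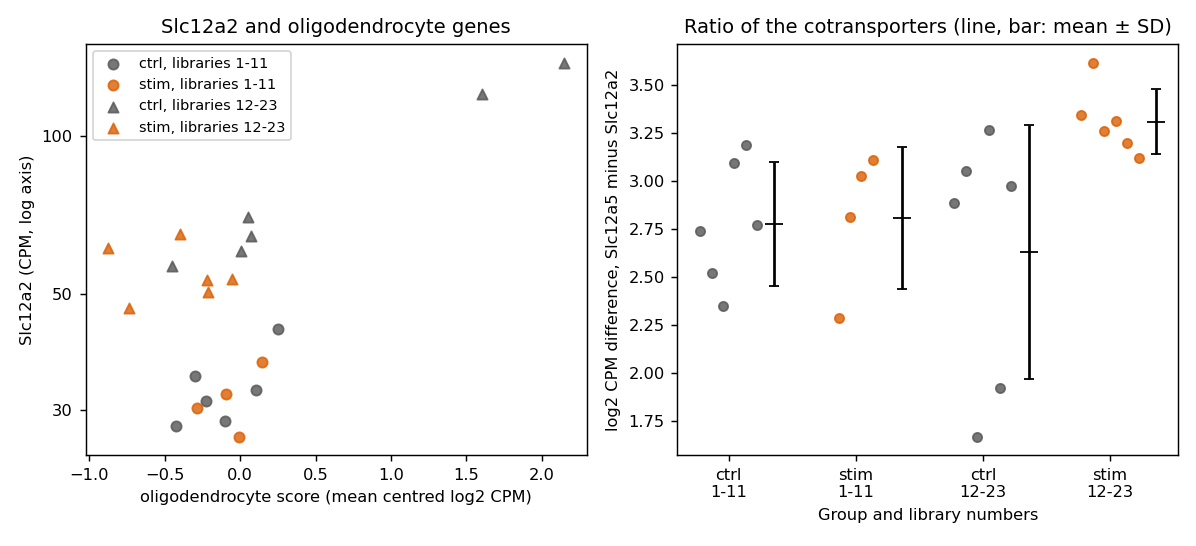
Left, Slc12a2 (CPM, log axis) against the oligodendrocyte score in each mouse. Right, the log2 ratio of Slc12a5 to Slc12a2 in each mouse with mean ± SD; controls 9 and 11 are the top right triangles (scores 2.14 and 1.60) and the lowest ratios (1.67 and 1.92).

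**Figure D4:**
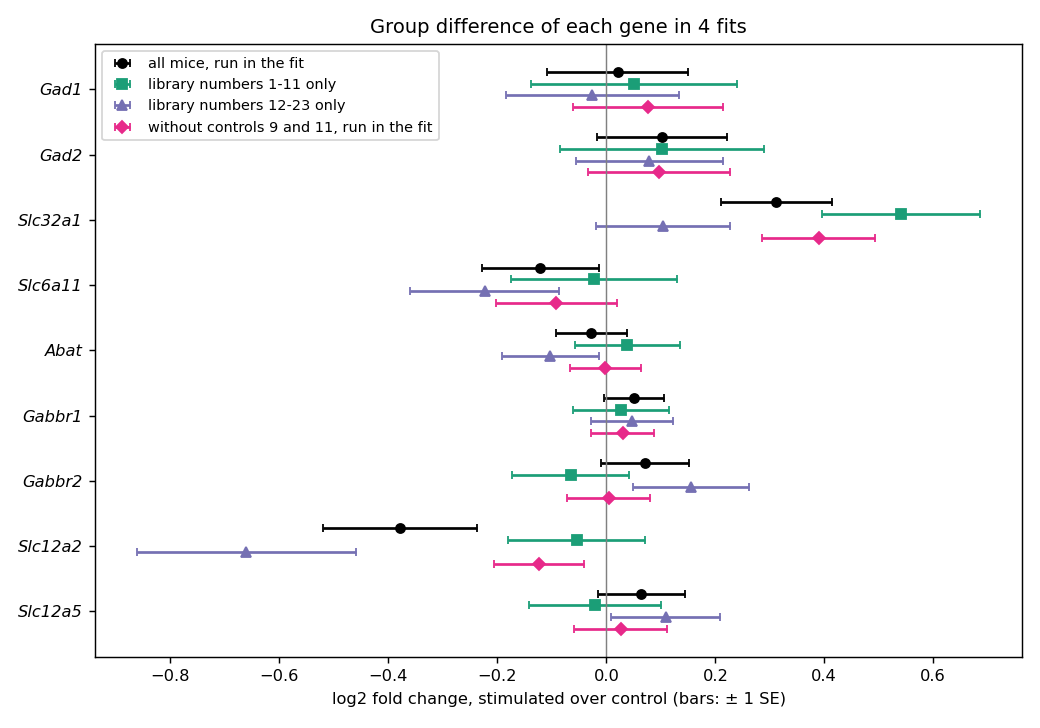
Log2 fold change (stimulated over control) of each gene with its SE, in the fit over all mice, in each run alone and without controls 9 and 11. Slc32a1 is at 0.54 in the first run and 0.10 in the second, and Slc12a2 moves from -0.38 to -0.12 without the 2 controls.

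For all 9 members the run of library numbers was a larger difference than the group. Levels were higher in the second run for every member, by 2.56-fold for Gabbr2, 2.46-fold for Slc6a11, 2.31-fold for Slc12a5, 2.16-fold for Slc12a2 and 2.03-fold for Abat, and 8 of the 9 had an adjusted p under 0.05, against 33.7% of all genes higher in that run by the same rule. Gad1, at 1.19-fold (adjusted p = 0.0911), was the exception, and Gad2 (1.27-fold), Slc32a1 (1.52-fold) and Gabbr1 (1.57-fold) stood between.

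The run also set the order of the levels. Per kilobase of exon, mean levels in the first run fell from Gabbr1 (45.0 CPM per kb) through Gad1 (34.6), Gabbr2 (31.8), Slc12a5 (30.1), Abat (29.9), Slc6a11 (22.4) and Gad2 (18.4) to Slc32a1 (4.47) and Slc12a2 (2.97). Gabbr2 came first in the second run (82.2 CPM per kb), then Gabbr1 (71.1), Slc12a5 (69.8), Abat (60.5), Slc6a11 (54.7), Gad1 (41.2), Gad2 (23.5), Slc32a1 (6.86) and Slc12a2 (6.40). In both runs the ranges of neighbours in this order overlapped, except that every mouse had more Gad2 than any had Slc32a1.

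With run and group means removed, members rose and fell together or in opposition across the 22 mice. The highest correlations of the residual log2 CPM were 0.91 for Slc6a11 with Abat, 0.88 for Gad1 with Gad2 and 0.86 for Gabbr2 with Slc12a5, and Slc32a1 correlated with Gad1 at 0.72 and with Gad2 at 0.57. Within the first run alone Slc32a1 correlated with Gad1 at r = 0.542 (permutation p = 0.108, adjusted 0.113; rho 0.479, permutation p = 0.169, adjusted 0.184) and with Gad2 at 0.557 (permutation p = 0.0990, adjusted 0.108; rho 0.261, permutation p = 0.467, adjusted 0.468). Without controls 1 and 2 these were 0.107 and -0.316, so they rest on those mice. The second-run values were 0.650 for Gad1 (permutation p = 0.0245, adjusted 0.0346; rho 0.636, permutation p = 0.0308, adjusted 0.0462) and 0.518 for Gad2 (permutation p = 0.0849, adjusted 0.0971; rho 0.455, permutation p = 0.142, adjusted 0.163). Without the 2 farthest mice of that run they were 0.625 and 0.389. The lowest residual correlations were -0.83 for Slc6a11 with Slc12a5, -0.76 for Slc6a11 with Gad2 and -0.75 for Slc6a11 with Gad1, and Abat with Slc12a5 was at -0.72. Slc12a2 stayed between -0.45 and 0.33 with every other member. In each mouse all genes were read from the same library, so the values are descriptions. Among 10163 genes with a mean of at least 10 CPM, those most alike to Gad1 were Pak1 (0.96), Cend1 (0.96) and Hspa9 (0.95), and to Gad2 Hspa9 (0.97), Tspyl4 (0.97) and Eif2ak1 (0.97). The closest genes to Slc32a1 were Rpp25 (0.90), Kcnip1 (0.88), a potassium channel-interacting protein, and AI837181 (0.86). Slc6a11 was closest to Fads1 (0.96) and Fads2 (0.95), desaturases of fatty acids, and to Kcnj16 (0.95), an inward-rectifier potassium channel. Slc12a5 was closest to Akap5 (0.95), a postsynaptic anchoring protein, Crmp1 (0.92) and Syne1 (0.92).

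Of the other genes of GABA handling and chloride balance, 29 were listed and all passed the count minimum. There were 13 above and 16 below 0, none had an unadjusted p under 0.05, and their median log2 fold change was -0.01. The 5 genes of GABA transport and breakdown included Aldh5a1, which completes the breakdown after Abat, at -0.09 (SE 0.07), and Slc38a1, a glutamine transporter, at -0.01 (SE 0.06). The 8 GABA-B auxiliary subunits and effectors lay between -0.05 (Kcnj3) and 0.09 (Kcnj6), both subunits of the potassium channels that the receptor opens.

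The 9 other cation-chloride cotransporters and kinases had a median of -0.10. The lowest were Wnk1 (-0.20, SE 0.10, unadjusted p = 0.0525, adjusted p = 0.438) and Oxsr1 (-0.20, SE 0.10, unadjusted p = 0.0654), kinases that act in series to activate NKCC1 and inhibit KCC2. Next came Slc12a4, a cotransporter, at -0.19 (SE 0.10, unadjusted p = 0.0843), while Stk39, a close relative of Oxsr1, was at 0.03 (SE 0.06). Car2, a carbonic anhydrase also abundant in oligodendrocytes, was at -0.31 (SE 0.15, unadjusted p = 0.0561, adjusted p = 0.448). These genes are named after their values were seen. In the second run alone 4 of the 29 had an unadjusted p under 0.05, all lower, where 8.3% of all genes were lower. They were Oxsr1, Car2, Wnk1 and Clcn2, a chloride channel. In the first run alone none of the 29 had such a p, against 5.56% of all genes. Without controls 9 and 11 none had either, against 8.16% of all genes, and the lowest log2 fold change of the 29 was -0.16. The median of the 9 cotransporters and kinases was then -0.03.

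**Figure D5:**
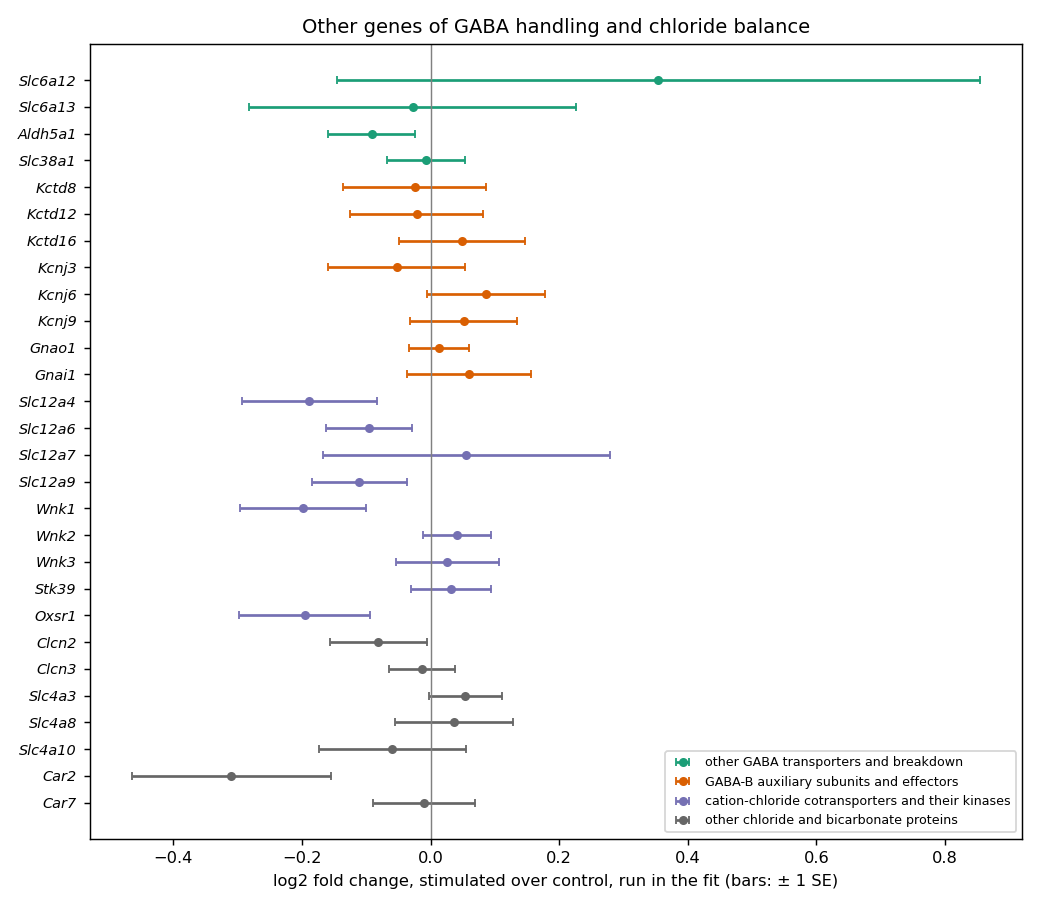
Log2 fold change (stimulated over control, run in the fit) and SE of all but 1 of the 29 other genes, coloured by group of function. They lie between -0.31 (Car2) and 0.35 (Slc6a12, with an SE of 0.50).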

How the data were processed

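RNA of bulk ACC was amplified by the authors with a SMART-Seq v4 kit, trimmed with cutadapt 1.10, aligned to mm10 with STAR 2.5.3a and counted per gene with HTSeq 0.6.1p1, as their processing notes and methods state. The authors deposited whole-number counts per mouse, which were tested here, and the same counts divided by size factors (a signal, read but not tested). Their own fold changes and p-values were not used, and 0 other columns of per-sample values were present. Counts were scaled with TMM and fitted with edgeR 4.0.16 (R 4.3.3, quasi-likelihood test), with run of library numbers and group as terms, over the 17524 genes that reached 10 counts in 10 or more mice, and p-values were adjusted by Benjamini-Hochberg over all of them. The study's methods used batch and RNA integrity as covariates. The labels give neither, so the run of library numbers was used and is not called a batch. CPM per mouse were scaled by TMM, with a prior count of 2 in log2 values. Ratios were tested by exact permutation within runs (194040 splits) and correlations by 100000 permutations. Members, lists and tests were chosen with earlier results of these data known, and the pairs of measures correlated after seeing these values. Named were the 9 members, the 3 genes most alike to each of 5 members, listed pathway genes past an unadjusted p of 0.05 (none) and marker lists. Other pathway genes and single markers in the text are examples chosen after their values were seen. The values of 1 listed pathway gene are not reported here. Coordinates are from GENCODE M21 (GRCm38), in which 37772 of 37786 identifiers were found. Sequences are from RefSeq. Each sample is labelled as a separate replicate and the study's methods count mice, so p-values measure the spread between mice. No 2 of the 231 pairs of libraries differed by as little as sampling noise (smallest mean chi-square per gene 10.0). The alternatives were DESeq2 1.42.0, limma 3.58.1 with voom, other size factors and count minimums, a surrogate variable (sva 3.50.0), the mitochondrial share, replicate blocks, each run alone and each mouse left out. Leaving out controls 9 and 11 together, also in the second run alone, was chosen after seeing the data. The fit was tested on simulated counts. The design text gives 23 samples, and 22 were analysed.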

Additional observations from a re-analysis of the deposited data

Results flagged for a closer look

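In 1 of the 60 groups examined for a mouse far from the others, the log2 ratio of Gad1 to Gad2 in stimulated mouse 8 was 1.18, above the other second-run stimulated mice (lowest 1.11, median 1.13). Chance alone would flag about 1 in 20 such groups.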

How the results depend on the processing

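Of the 9 members 2 had an unadjusted p under 0.05 with any 1 mouse left out. The count was 0 with group as the only term, 2 with the replicate block in place of run (Slc32a1 and Gabbr2), and 1 in each run alone, with a replicate block and run, and without controls 9 and 11. Over all 17524 genes the count of 2015 was 632 with group only, 1291 with the replicate block and 1980 with block and run. With no count minimum it was 3687 of 37571. The count was 2184 by DESeq2, 2860 by voom, 2910 with a surrogate variable and 1864 with the mitochondrial share. It was 974 in the first run, 2165 in the second, 1430 without controls 9 and 11, and 1561 to 2489 with 1 mouse left out. After adjustment it was 0, but 33 by DESeq2, 1 by voom, 1 without controls 9 and 11, and 0 to 1 with 1 mouse left out (1 without control 9). Of the 29 pathway genes none passed an unadjusted p of 0.05 in the main fit. The count was 2 with no minimum, 1 by DESeq2 and 1 by voom. It was 1 with the block, 1 with block and run, 3 with a surrogate variable and 4 in the second run. With 1 mouse left out it was 0 to 4 (above 0 without control 4, 5, 6, 8, 10 or 12 or stimulated mouse 1, 4, 9 or 10). These counts stand beside those over all genes in the same fits, given above. The log2 ratio of Slc12a5 to Slc12a2 was 0.41 over all mice without runs, 0.68 in the second run (0.2653 there without controls 9 and 11) and 0.27 to 0.48 with 1 mouse left out. Its exact permutation p, 0.0571 in all, fell under 0.05 without control 4, 5, 8 or 10 or stimulated mouse 1 (lowest 0.0102). That of Gabbr1 to Gabbr2 turned to 0.0854 in the first run, 0.0235 without controls 9 and 11, and lay between -0.0467 and 0.0011 with 1 mouse left out.

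The replicate block could take only the 20 mice with numbers 1 to 10, so it also left out controls 11 and 12, and without run in the fit it differs from the main one in 3 ways. With it Slc12a2 was at -0.07 (unadjusted p = 0.663), and with block and run at -0.26 (unadjusted p = 0.0843). Astrocyte markers split 4 above and 4 below 0 with the block, and 0 of 3 choroid plexus markers had an unadjusted p under 0.05 with the block, alone or with run. Of the 8 oligodendrocyte markers 2 did with the block and 2 with block and run (medians -0.36 and -0.41), and 6 by DESeq2. In these fits 641, 964 and 1027 of 17524 genes were lower at that p. Of the 10 interneuron markers 0 did with the block. With block and run 2 did, both higher, where 1016 of 17524 genes were. With at least 10 counts in every mouse 1 did, also higher, where 878 of 14554 genes were. Signs turned for small fold changes. Gad1 went to -0.0129 with a surrogate variable, -0.107 with the mitochondrial share, -0.0257 in the second run and -0.0327 to 0.0731 with 1 mouse left out. Gad2 went to -0.0225 with that share. Slc6a11 went to 0.18 with the replicate block and 0.0009 with the mitochondrial share. Abat went to 0.0527 with group only, 0.207 with the block, 0.0202 with the mitochondrial share and 0.0384 in the first run. Gabbr2 went to -0.0651 in the first run, and Slc12a5 to -0.0088 with the mitochondrial share and -0.0206 in the first run. The cause was not tested. Same-numbered mice were not taken as pairs. Deviations from the group mean, which still hold the run, correlated over 0.1 for 8 of 10 numbers (range -0.37 to 0.63, mean 0.31). With the run also removed the mean was 0.05. Of 20 mice 5 correlated best with their own number, and 2 numbers span both runs. At this depth counting error is small beside the spread between mice, and intervals on counts would cover counting alone.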
